A study of Mus musculus with 10 samples.

Results

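The naive pluripotency transcription factors are the DNA-binding and chromatin regulators that hold mouse embryonic stem (ES) cells in the state of the pre-implantation epiblast. The 10 genes described here, Nanog, Klf2, Klf4, Klf5, Esrrb, Tbx3, Tfcp2l1, Prdm14, Nr0b1 and Zfp42, were taken as a named list of 30677 genes in the count table, and each was found by its Ensembl identifier. All 10 were among the 20027 genes with enough reads to be tested.

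The cells were TNGA mouse ES cells, a heterozygous line in which green fluorescent protein (GFP) is expressed from 1 allele of Nanog, grown in serum with leukaemia inhibitory factor (LIF). They received 100 μM MB-3, a small-molecule inhibitor of the histone acetyltransferase Kat2a (Gcn5), or the vehicle dimethyl sulfoxide (DMSO) alone, for 48 hours, and every culture held the same final volume of DMSO. RNA was sequenced from 3 libraries per treatment, which carry the letters A, B and C in the labels, and acetylation of histone H3 at lysine 9 (H3K9ac) was mapped as 1 peak list per treatment. The question was whether Kat2a inhibition changed the transcript levels of these factors or the H3K9ac at their genes. How reads of the reporter allele of Nanog were counted is not given in the sources used here.

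Naive factors work as a network in which several members can stand in for one another. LIF acts through Stat3 to sustain Klf4 and Tfcp2l1, Wnt signalling relieves the repressor Tcf7l1 at Esrrb, and Nanog, Esrrb and the Krüppel-like factors bind near each other's genes together with Oct4 (Pou5f1) and Sox2. In serum the members vary from cell to cell. In these bulk libraries, fewer cells that express a gene and less RNA per cell cannot be told apart.

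Promoter sequences of 7 of the 10 members were matched in RefSeq (GRCm38.p6), and those of Klf5, Tbx3 and Prdm14 were not. The 250 bases before the annotated start are shown for Nanog and Zfp42, the 2 members with an octamer half-site, and for Tfcp2l1, which like Klf4 held none of the motifs searched. Capitals mark the octamer half-site TTTGCAT (Oct4 family), the SOX motif CATTGT and the KLF motif CCACCC, each read on either strand. The sequences run 5′ to 3′ on the strand of the gene, from chr6:122707239-122707488 on the plus strand, chr8:43307010-43307259 on the minus strand and chr1:118627695-118627944 on the plus strand.
Nanog: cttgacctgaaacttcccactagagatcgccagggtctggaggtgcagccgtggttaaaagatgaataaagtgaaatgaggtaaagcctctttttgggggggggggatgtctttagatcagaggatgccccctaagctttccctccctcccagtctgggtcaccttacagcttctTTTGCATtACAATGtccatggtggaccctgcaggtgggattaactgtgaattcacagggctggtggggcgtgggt
Zfp42: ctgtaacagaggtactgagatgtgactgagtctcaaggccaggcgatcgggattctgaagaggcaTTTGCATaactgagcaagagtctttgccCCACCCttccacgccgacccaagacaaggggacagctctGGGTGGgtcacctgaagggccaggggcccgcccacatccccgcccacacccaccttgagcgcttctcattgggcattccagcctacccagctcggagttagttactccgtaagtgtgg
Tfcp2l1: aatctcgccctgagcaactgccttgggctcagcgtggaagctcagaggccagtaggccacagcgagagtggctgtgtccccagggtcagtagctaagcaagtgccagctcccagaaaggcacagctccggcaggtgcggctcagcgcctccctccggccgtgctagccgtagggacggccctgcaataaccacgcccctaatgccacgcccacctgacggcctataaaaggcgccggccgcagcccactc
In the Nanog promoter the octamer half-site began 75 bases before the start and the SOX motif, read as ACAATG on the plus strand, began 67 bases before it, so that a single base lay between them. In windows of 250 bases before and 50 bases after the start, TTTGCAT was in 4.6% of 32851 promoters and CATTGT in 12.6%. The KLF motif was in the windows of 5 of the 7 matched members (Nanog, Klf2, Esrrb, Nr0b1 and Zfp42) and in 31.5% of all promoters. AAGGTCA, the motif of Esrrb, was in none of the 7 and in 4.7% of all promoters, and TTCNNNGAA, the Stat motif, was in that of Esrrb alone and in 8.3% of all promoters. These matches are letters in a window and were not tested for binding.

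The 6 libraries held 42270312 to 51137896 counts, and levels are given in CPM, counts scaled to the size of their library, in which 1 CPM stood for 42.9 to 50.2 reads. The members took 0.214% to 0.233% of the counts of a library. The labelled cell type had its defining markers: Pou5f1 was at 672 ± 35.4 CPM (SD, n = 3) in DMSO and 676 ± 35.1 CPM in MB-3, and Sox2 was at 451 ± 22.5 and 456 ± 5.72 CPM. A library that stood apart in other genes was DMSO C, in which 6 mesendoderm markers summed to 51.1 CPM against 27.2 in DMSO A, 16.3 in DMSO B and 8.52 to 15.3 in the MB-3 libraries. The most abundant of them was T (Brachyury), at 32.5 CPM in DMSO C. Fold changes without that library are given below for the 5 members that it moved by over 1.5 times or turned in sign. Of 8 fibroblast or feeder markers, the sums were 8.05 to 10.8 CPM in DMSO and 6.72 to 6.92 CPM in MB-3, with Thy1 the most abundant, and Lum and Postn had too few reads to be tested. Their part in the values of the naive factors was not tested.

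Levels of different genes were compared per kilobase of merged exon. Zfp42 (Rex1), a zinc-finger gene related to Yy1 and a standard marker of naive cells, was the highest at 270 ± 10.7 CPM per kb (SD over 6 libraries). Nanog, a homeodomain factor, came next at 115 ± 4.67, followed by the orphan nuclear receptor Esrrb at 109 ± 3.72 and the Krüppel-like zinc-finger factor Klf2 at 104 ± 9.75 CPM per kb. The ranges of these last 3 genes over the libraries overlapped. Within libraries Nanog was above Esrrb in 6 of 6, whereas Esrrb was above Klf2 in 4 of 6. Nr0b1 (Dax1), an atypical nuclear receptor without the usual DNA-binding domain, stood below them at 73.6 ± 7.03 CPM per kb. Tfcp2l1, a CP2-family factor, at 25.7 ± 2.41 and Klf4 at 25.5 ± 1.67 CPM per kb did not differ beyond their spread. Klf5 was at 15.3 ± 0.904 CPM per kb. The T-box factor Tbx3 at 8.97 ± 1.39 and the PR-domain protein Prdm14, a repressor of FGF signalling and DNA methylation genes, at 7.27 ± 0.448 CPM per kb were the lowest. Their ranges overlapped over the 6 libraries, but Tbx3 was above Prdm14 in each of the 6, by more in DMSO (10.2 ± 0.354 and 7.14 ± 0.653 CPM per kb, SD, n = 3) than in MB-3 (7.73 ± 0.271 and 7.39 ± 0.172).

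**Figure D1:**
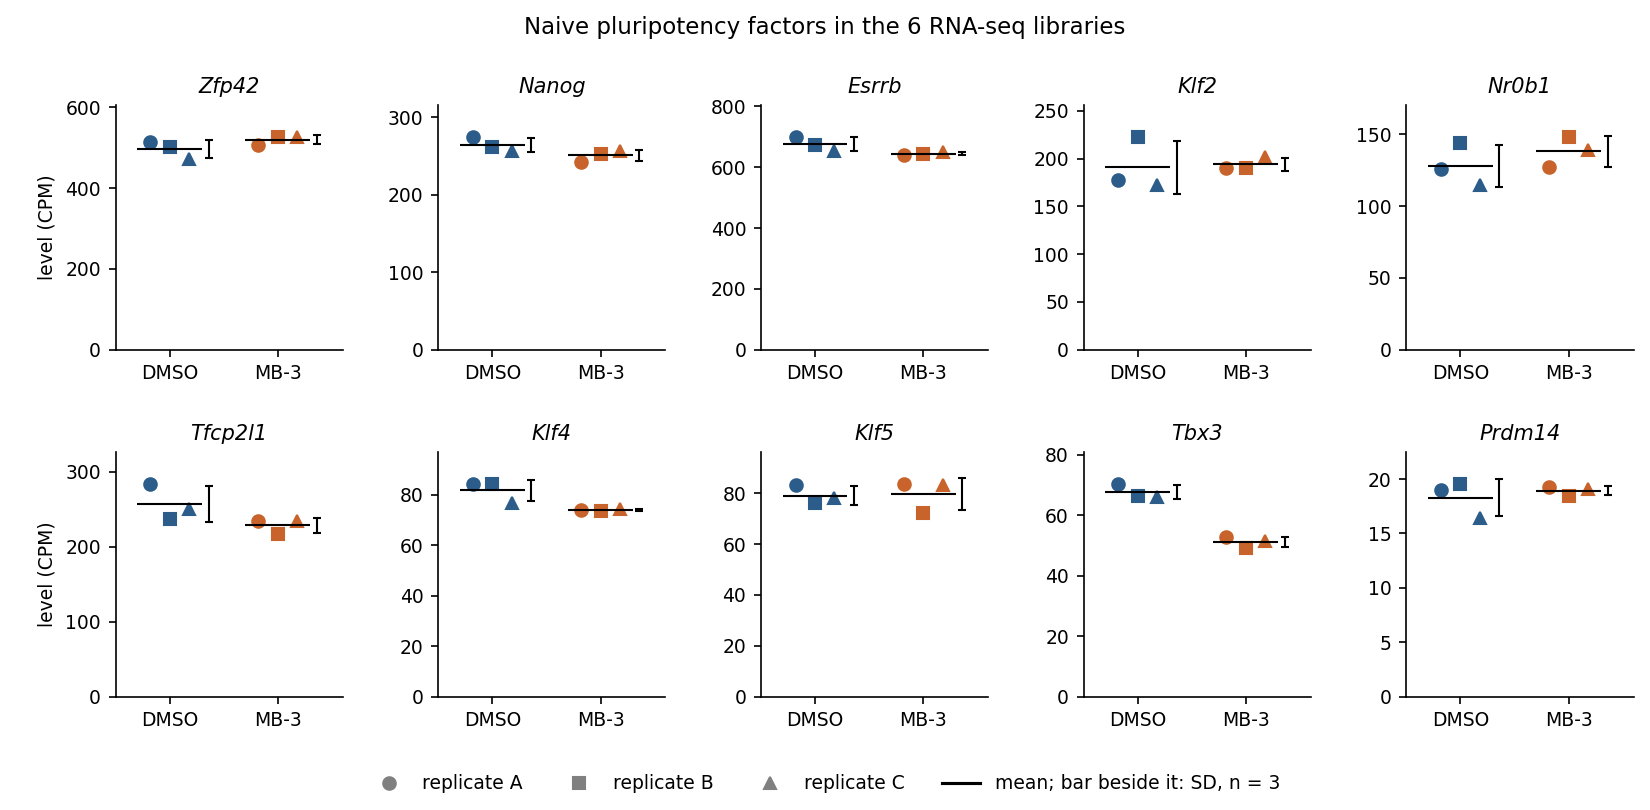
Level of each naive factor in CPM (y axis, from 0) in the 3 DMSO and 3 MB-3 libraries (x axis), ordered by level per kilobase. Points are libraries with a symbol for each replicate letter, horizontal lines are means and the bars beside them are the SD (n = 3); the groups of Tbx3 are set well apart, those of Klf4, Tfcp2l1 and Esrrb are narrowly separate, and those of the other 6 genes overlap.

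The transcript of Tbx3 was lower after MB-3, and the other 9 factors had log2 fold changes of -0.17 to 0.11. Tbx3 was the only member that passed the threshold when treatment was the only term, and with the replicate letter as a block Tfcp2l1 passed as well. Both were lower in MB-3. With treatment alone, 1 of the 10 members was called, in a table where 0.205% of the tested genes were called and 0.105% were called lower. With the block, 2 of 10 were called, against 7.12% of all genes called and 3.9% called lower. The median log2 fold change of the members was -0.03, and that of all tested genes was -0.0011. In absolute size the median was 0.0719 for the members and 0.0979 for all tested genes, with 5 members higher and 5 lower in MB-3.

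Tbx3 lies on the plus strand of chr5:119670669-119684724 (GRCm38, GENCODE M21). Its level was 70.3, 66.3 and 66.2 CPM in DMSO A, B and C and 52.7, 49.2 and 51.7 CPM in MB-3 A, B and C. Every MB-3 library was below every DMSO library. The level fell by 24.3%, a log2 fold change of -0.40 ± 0.0585 (SE), with a Benjamini-Hochberg adjusted p of 0.0243 in edgeR's quasi-likelihood test and of 1.13e-06 with the block. The log2 difference between libraries of the same letter was -0.42 for A, -0.43 for B and -0.36 for C. The fold change stayed between -0.42 and -0.37 when each library was left out in turn. The adjusted p of edgeR's test rose to 0.0832 without DMSO A, 0.0701 without DMSO C, 0.135 without MB-3 A and 0.165 without MB-3 B, each above the threshold of 0.05, and 0 to 5 genes of the whole table were called without these libraries. Tbx3 shares 115 exonic bases with the antisense gene Tbx3os1, which had 16 to 28 counts in any library against 2161 to 3386 for Tbx3.

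Tfcp2l1, on the plus strand of chr1:118627945-118685168, is sustained by LIF and Stat3 in ES cells. It was at 283, 237 and 251 CPM in DMSO A, B and C and at 235, 216 and 234 CPM in MB-3 A, B and C. The groups did not overlap, although DMSO B and MB-3 A were less than 3 CPM apart. The log2 fold change was -0.17 ± 0.0691 (SE), with an adjusted p of 0.383 in edgeR's quasi-likelihood test (Benjamini-Hochberg) and 0.0142 with the block. Within letters the log2 differences were -0.27, -0.13 and -0.10 for A, B and C. The blocked call was lost when letter A was left out (log2 fold change -0.12, edgeR adjusted p = 0.301) and when letter B was left out (-0.19, 0.0531), and it was kept without letter C (-0.20, 0.0023). Without DMSO A, the highest of its 6 values, the log2 fold change with treatment alone was -0.10.

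Klf4 and Esrrb also had groups that did not overlap, with every MB-3 library lower, but passed the threshold in neither fit. Groups without overlap, in either direction, were found for 4 of the 10 members and for 15.6% of all tested genes. Klf4, a reprogramming factor and a direct target of Stat3 on chr4:55527143-55532466 (minus strand), was at 84.1, 84.2 and 76.7 CPM in DMSO and 73.9, 73.5 and 74.2 CPM in MB-3. Its 3 MB-3 libraries were nearly level and the DMSO C library came closest to them. The log2 fold change was -0.15 (95% interval -0.27 to -0.02), with an edgeR quasi-likelihood Benjamini-Hochberg adjusted p of 0.369, and 0.0662 with the block. Without letter C the blocked adjusted p of edgeR was 0.0206, at a log2 fold change of -0.19.

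Esrrb, on chr12:86361117-86521628 (plus strand), had the most reads of the members. It was at 699, 675 and 654 CPM in DMSO A, B and C and at 639, 644 and 651 CPM in MB-3. DMSO C and MB-3 C were almost equal, with a log2 difference of -0.0071, and the difference in letter A was -0.13. The log2 fold change was -0.07 (95% interval -0.19 to 0.05), with an edgeR adjusted p of 0.697, and 0.400 with the block. Without DMSO A it was -0.04. Of the 20027 tested genes, 20.3% were lower in MB-3 within all 3 letters, as Tbx3, Tfcp2l1, Klf4 and Esrrb were.

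Nanog, the gene that carries the reporter of these cells, lies on the plus strand of chr6:122707489-122714633. It was at 274, 262 and 256 CPM in DMSO A, B and C and at 243, 252 and 257 CPM in MB-3. The groups overlapped: MB-3 C was above DMSO C, and the separation came mainly from letter A, with a log2 difference of -0.18 against -0.05 for B and 0.0035 for C. The log2 fold change was -0.08 (95% interval -0.19 to 0.04), with an edgeR quasi-likelihood Benjamini-Hochberg adjusted p of 0.648, and 0.347 with the block. Without DMSO A it was -0.05, and with letter A left out of the blocked fit it was -0.03. The difference was not resolved from 0, and the interval bounds its size. A processed pseudogene, Nanog-ps1, was listed at 26.0 to 27.9 CPM, with a log2 fold change of -0.07, and reads of near-identical copies could be split between it and Nanog, so that the level of Nanog carries this uncertainty.

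The remaining 5 factors had log2 fold changes of 0.0126 to 0.11 and overlapping groups. Nr0b1, on chrX:86191764-86195947 (plus strand), was at 126, 144 and 115 CPM in DMSO and 127, 148 and 139 CPM in MB-3. It was the one member higher in MB-3 within all 3 letters, a pattern seen in 20.2% of tested genes, and the log2 difference was 0.28 in letter C, 0.01 in A and 0.04 in B. Its log2 fold change was 0.11 (95% interval -0.07 to 0.28), with an edgeR adjusted p of 0.661, and 0.191 with the block. The fold change was 0.03 without DMSO C and 0.20 without DMSO B.

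Zfp42, on chr8:43295063-43306980 (minus strand), was at 515, 502 and 471 CPM in DMSO A, B and C and 507, 526 and 525 CPM in MB-3. The order of the treatments differed between letters, as MB-3 was lower in A and higher in B and C. The log2 fold change was 0.07 (95% interval -0.06 to 0.19), with an edgeR adjusted p of 0.714, and it was 0.03 without DMSO C. Prdm14, the least abundant member, on chr1:13113457-13127163 (minus strand), was at 19.0, 19.5 and 16.4 CPM in DMSO and 19.3, 18.4 and 19.1 CPM in MB-3. Its MB-3 values lay inside the DMSO range. The log2 fold change was 0.05 (95% interval -0.12 to 0.22), with an edgeR adjusted p of 0.865, and it turned to -0.02 without DMSO C.

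The other two Krüppel-like factors showed the smallest differences of the 10 members. Klf2, on chr8:72319033-72321656 (plus strand), was at 177, 222 and 173 CPM in DMSO A, B and C and 191, 190 and 202 CPM in MB-3. DMSO B was the highest library, and all 3 MB-3 values fell between it and the other DMSO libraries. The log2 fold change of 0.03 (95% interval -0.15 to 0.21, edgeR adjusted p = 0.937) was 0.15 without DMSO B and turned to -0.04 without DMSO C. Klf5, on chr14:99298691-99315036 (plus strand), was at 83.1, 76.0 and 78.1 CPM in DMSO and 83.6, 72.3 and 83.3 CPM in MB-3. The B library was the lowest in both treatments, and the log2 fold change was 0.01 (95% interval -0.13 to 0.16, edgeR adjusted p = 0.963), or 0.0034 without DMSO C.

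**Figure D2:**
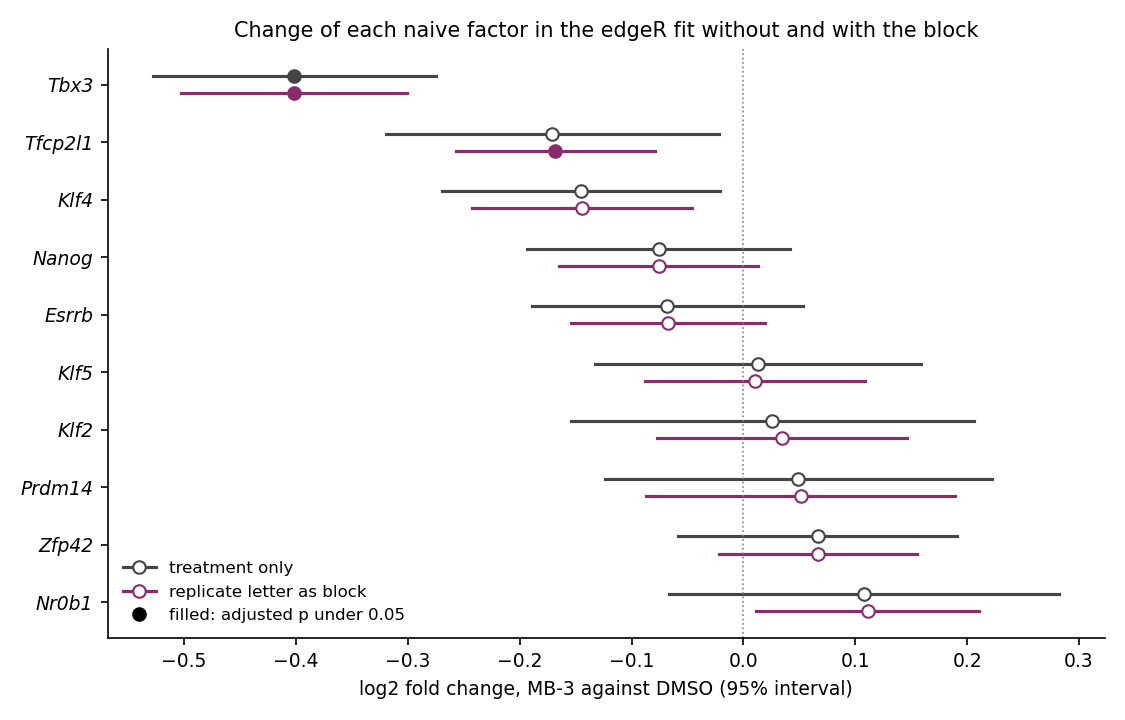
Log2 fold change of each naive factor, MB-3 against DMSO (x axis), in edgeR's fit with treatment only (grey) and with the replicate letter as a block (purple). Points are estimates, lines are 95% intervals and filled points have an adjusted p under 0.05: Tbx3 in both fits, at -0.40, and Tfcp2l1 with the block, at -0.17.

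The spread between replicates differed among these genes. The SD of the log2 level over 3 libraries was larger in DMSO than in MB-3 for 8 of the 10 members, as it was for 60.1% of the 10164 tested genes at 10 CPM or more. The exceptions were Klf5 (0.0663 in DMSO and 0.119 in MB-3) and Tbx3 (0.0495 and 0.0508). Klf2 had the widest spread in DMSO at 0.201, followed by Nr0b1 (0.164), Prdm14 (0.135) and Tfcp2l1 (0.132). Klf4 had the narrowest in MB-3 at 0.0066. The median SD of the members was 0.0715 in DMSO and 0.0459 in MB-3, and that of all genes at 10 CPM or more was 0.0810 and 0.0695. This is the spread between libraries and says nothing of the spread between single cells.

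Over the 6 libraries, given as a description of libraries that share treatment and letter, Nanog followed Esrrb most closely of the member pairs (r = 0.945), followed by Klf4 with Esrrb (0.930) and Klf4 with Tbx3 (0.876). Tfcp2l1 and Nr0b1 ran most opposite (-0.628). Likeness to other genes was taken as the highest r among 10154 genes at 10 CPM or more. With 6 libraries such picking gives high r by itself, and none of these values was tested. Cept1 (r = 0.995), Orc1 (0.980) and Ivns1abp (0.973) were most like Nanog over the same 6 libraries. Lrch2 (0.987), Acad8 (0.984) and Zfas1 (0.972) were most like the mean of the standardized members. That mean was highest in DMSO A (0.748 SD) and DMSO B (0.517) and lowest in DMSO C (-0.605), with the MB-3 libraries at -0.333, -0.413 and 0.0850, so the treatments overlapped. Summed over the members, the level was 2331, 2288 and 2157 CPM in DMSO A, B and C and 2170, 2191 and 2237 CPM in MB-3.

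Signals that feed the naive factors were set beside them as a list of 14 genes. Socs3, the feedback inhibitor that Stat3 induces, was the one gene of this list that passed with treatment alone, beside 0.205% of all tested genes, and with the block 2 of the 14 were called, beside 7.12%. Socs3 was at 134 ± 2.79 CPM in DMSO and fell to 107 ± 4.97 CPM in MB-3 (SD, n = 3), with -0.32 as its log2 fold change (edgeR quasi-likelihood, Benjamini-Hochberg adjusted p = 0.0485, and 1.23e-05 with the block). The call was kept without DMSO B (edgeR adjusted p = 0.0133) and lost without each of the other 5 libraries, with adjusted p-values of 0.0757 to 0.329, and in limma-voom (0.0624). The log2 fold change of Socs3 stayed between -0.35 and -0.28 when each library was left out in turn. Stat3 itself was at 79.1 ± 2.44 and 71.9 ± 1.47 CPM and passed in neither fit. Lifr, the LIF receptor, had a log2 fold change of 0.19 with the block, called by edgeR (adjusted p = 0.0495) and not by DESeq2 with the block (adjusted p = 0.220), and it was lower in MB-3 within letter B (-0.03). With treatment alone it was 0.18, 0.08 without DMSO C and 0.29 without DMSO B. The median of the 14 log2 fold changes was 0.00595. The target of MB-3, Kat2a, was at 124 to 139 CPM in all libraries with a log2 fold change of -0.0084, and its paralog Kat2b was at 52.2 to 62.6 CPM with 0.01; the transcript level of the target of an enzyme inhibitor checks no label.

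A list of 13 genes that are co-expressed with the naive factors in ES cells was set beside them as well. None passed with treatment alone in edgeR's test, where 5 had an unadjusted p under 0.05 beside 10.9% of all tested genes, and with the block 3 were called higher and 2 lower, beside 7.12% of all tested genes called. Tcl1, an Akt co-activator, fell with the block (112 ± 8.97 CPM in DMSO and 87.6 ± 4.48 in MB-3, log2 fold change -0.36, adjusted p = 9.57e-06 with the block and 0.0549 without it, edgeR). The adhesion gene Jam2 fell likewise (log2 fold change -0.27, edgeR adjusted p = 2.92e-04 with the block and 0.0979 without). The homeobox gene Gbx2 rose with the block (0.42, edgeR adjusted p = 3.24e-04, and 0.283 without it), as did Fgf4, the growth factor that drives exit from the naive state (0.17, 0.0227 and 0.398). The call of Fgf4 was lost in DESeq2 with the block (adjusted p = 0.0675), and those of Tcl1, Jam2 and Gbx2 were kept there. Without DMSO C the log2 fold change with treatment alone went from 0.41 to 0.25 for Gbx2 and from 0.17 to 0.09 for Fgf4. The third gene called higher was Dppa2, named after its value was seen (0.18, edgeR adjusted p = 0.0397, and 0.157 in DESeq2 with the block), which went from 0.18 to 0.09 with treatment alone without DMSO C. Of the 3 core factors, Pou5f1 and Sox2 had log2 fold changes of 0.0086 and 0.02 and passed in neither fit, and Sall4 had 0.19 with the block, called by edgeR (adjusted p = 0.0443) and not by DESeq2 with the block (adjusted p = 0.643), and was lower in MB-3 within letter B (-0.10). With treatment alone Sall4 had 0.18, 0.08 without DMSO C and 0.30 without DMSO B.

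Of 12 genes of the primed and formative state, which follows the naive one, 3 were called higher with treatment alone and none lower, beside 0.205% of all tested genes called. These were Zic2 (log2 fold change 0.44, edgeR quasi-likelihood Benjamini-Hochberg adjusted p = 0.0311) and the de novo DNA methyltransferases Dnmt3b (0.32, 0.0358) and Dnmt3a (0.34, 0.0485). All 3 calls were lost without DMSO A, DMSO C, MB-3 A or MB-3 B, with edgeR adjusted p-values of 0.0915 to 0.254 for Zic2, 0.113 to 0.226 for Dnmt3b and 0.110 to 0.316 for Dnmt3a. That of Dnmt3b was also lost without MB-3 C (0.0668), and that of Dnmt3a under upper quartile normalization (0.0514) and limma-voom (0.0624). The log2 fold changes of these genes stayed about as large when each library was left out in turn. They were 0.39 to 0.48 for Zic2, 0.31 to 0.34 for Dnmt3b and 0.31 to 0.37 for Dnmt3a. With the block 7 were called higher, beside 3.22% of all tested genes, with the epiblast factor Otx2 among them (0.30, edgeR adjusted p = 1.31e-04, and 0.0611 without the block). The 1 called lower was Fgf5, a growth factor of the primed epiblast, named after its value was seen (-0.56, edgeR adjusted p = 0.0014 with the block). Its log2 difference within letter B was -0.06, and with treatment alone its log2 fold change went from -0.59 to -0.25 without DMSO C. The median log2 fold change of this list was 0.25 against -0.03 for the naive factors. The 2 lists were not tested against each other.

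Relatives of the members in their gene families were set beside them. Of 14 further Krüppel-like genes 12 were tested, none passed with treatment alone (2 had an unadjusted p under 0.05, beside 10.9% of all tested genes), and with the block, where 7.12% of all tested genes were called, Klf10 was called lower (log2 fold change -0.23, edgeR adjusted p = 0.0016) and Klf16 higher (0.20, 0.0213). The call of Klf16 was lost in DESeq2 with the block (adjusted p = 0.106), and Klf10 went from -0.23 to -0.14 with treatment alone without MB-3 B. Klf9 was the most abundant of them at 163 ± 8.46 CPM in DMSO and 165 ± 1.05 in MB-3. Of 10 relatives of the other members 7 were tested and none passed in either fit (1 had an unadjusted p under 0.05 with treatment alone). The most abundant were Ubp1, at 108 ± 2.91 CPM in DMSO with a log2 fold change of 0.03, Yy1, at 77.2 ± 2.86 CPM with 0.08, and Prdm1, at 40.7 ± 3.91 CPM with 0.05. Among the rest Tbx2 was at most 0.402 CPM, and Tfcp2, a relative of Tfcp2l1, was at 12.5 ± 0.761 CPM in DMSO and 13.3 ± 0.240 in MB-3.

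Markers of other cell types that a culture of ES cells can hold were summed as well. Of 5 mesendoderm genes tested, T, Mixl1, Wnt3 and Eomes were called lower with the block, beside 3.9% of all tested genes, T from 19.3 ± 12.0 to 5.23 ± 1.99 CPM with an edgeR adjusted p of 1.47e-14 (0.0611 with treatment alone). Without DMSO C the log2 fold change with treatment alone went from -1.89 to -1.29 for T, from -1.90 to -1.39 for Mixl1, from -1.35 to -0.685 for Wnt3 and from -0.69 to -0.33 for Eomes. Their part in the values of the members was not tested. T was highest in DMSO C and lower in MB-3 within each letter, with log2 differences of -1.80, -1.32 and -2.11 for A, B and C. Tbx3 and Tfcp2l1 were highest in DMSO A and were also lower in MB-3 within each letter. Of 6 fibroblast or feeder genes tested, Col1a1 and Col1a2 were called lower with the block, beside 3.9% of all tested genes. Each was at or under 2.20 CPM in every library, and DESeq2 with the block gave Col1a1 no adjusted p. The others passed in neither fit. Of these, Col3a1 and Dcn were higher in MB-3 within 2 letters, Thy1 within 1 and Pdgfrb within 0. Of the 8 extraembryonic endoderm markers 6 were tested and none passed in either fit or had an unadjusted p under 0.05 with treatment alone, and their sums were 8.99 to 13.0 CPM in DMSO and 8.32 to 10.3 CPM in MB-3, mostly of Dab2, with Gata4, Gata6 and Pdgfra each at or under 1.02 CPM in every library. The trophoblast list was mostly Tfap2c, a gene that ES cells also express, which rose with the block alone (63.4 ± 2.79 and 71.2 ± 0.733 CPM, edgeR adjusted p = 0.0322, and 0.0976 in DESeq2 with the block). The other 3 trophoblast genes tested passed in neither fit, with log2 fold changes of -0.85 for Hand1, -0.47 for Cdx2 and -0.24 for Krt7. Without DMSO C these were -0.33, 0.13 and 0.17, so that Cdx2 and Krt7 turned in sign.

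**Figure D3:**
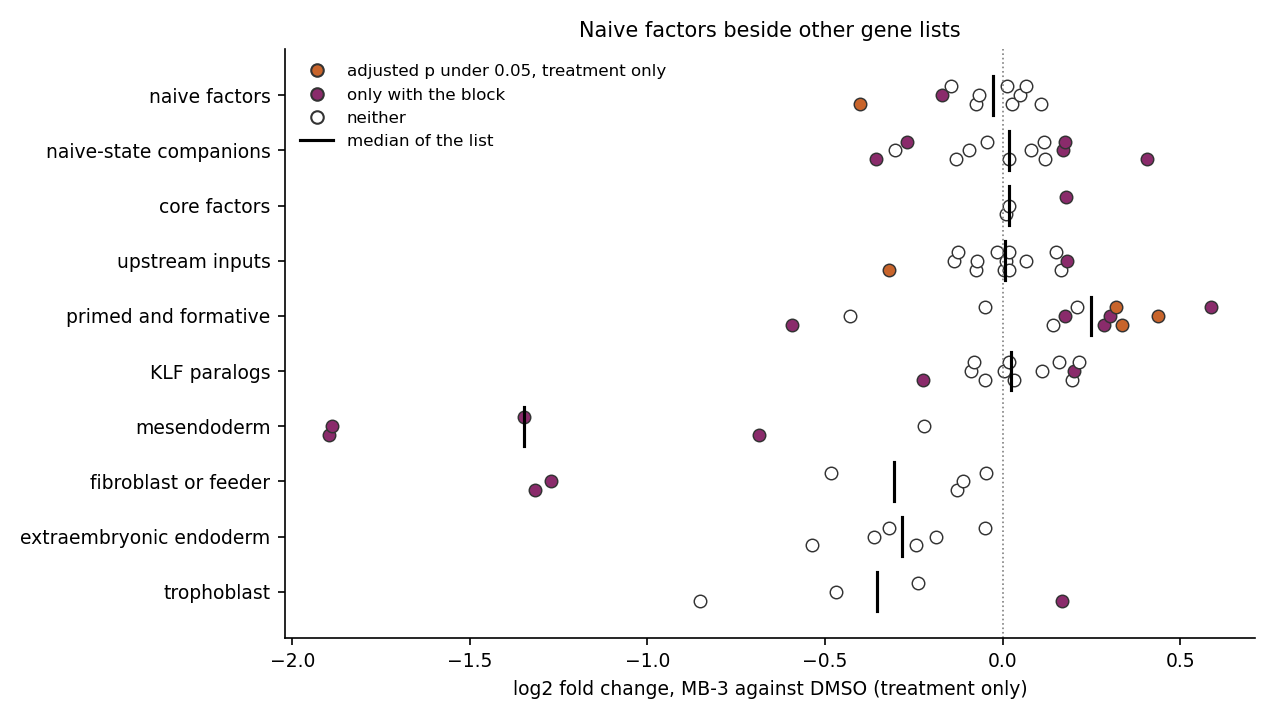
Log2 fold change, MB-3 against DMSO with treatment only (x axis), of each tested gene in the naive factors and in other gene lists (rows). Each point is a gene, orange where its adjusted p is under 0.05 with treatment only, purple where it is so only with the block and white otherwise, and vertical lines are list medians: -0.03 for the naive factors, 0.25 for the primed and formative genes and -1.35 for the 5 tested mesendoderm genes, which is the value of Wnt3 and was -0.685 for that gene without DMSO C.

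H3K9ac marks active promoters and enhancers, and Kat2a is one of the enzymes that place it. Peaks could be paired with Nanog, Klf5, Esrrb, Prdm14 and Tfcp2l1, and were not analysed here for the other members. Positions are on mm9, a different build from that of the gene coordinates above, and the 2 are not comparable. At these 5 genes the DMSO list held 15 peaks of 12392 bp in sum, and the MB-3 list held 6 peaks of 3876 bp at 3 of the genes. Of the 15 DMSO peaks 10 had no overlapping MB-3 peak, a share to be read beside the 64.2% of all 11724 DMSO peaks without one. Members were paired through gene names that the study gives with its peaks of both treatments, or through the Nanog region it drew. The study drew that region to show reduced H3K9ac, so peaks there may have been included because they were lost. Whether the gene names depend on the loss of a peak is not known here, so the shares were not compared. Each list came from duplicates that the study merged because their reads were relatively few. The lists hold no peak height or score, so there is no replicate error and no test. Their exact depth is unknown, and whether an absent peak was lost acetylation or a missed call was not tested.

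At Nanog the DMSO list held a peak of 432 bp at chr6:122652015-122652446 with no MB-3 counterpart, the nearest MB-3 peak being 5500 bp away. The second DMSO peak, of 1208 bp at chr6:122658010-122659217, overlapped by 548 bp an MB-3 peak of 612 bp at chr6:122657946-122658557. A shorter interval remained at Nanog in MB-3, where its transcript level overlapped that of DMSO. At Klf5 the DMSO peak of 2413 bp (chr14:99698008-99700420) was covered over 62.0% of its length by an MB-3 peak of 1497 bp.

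Esrrb had 8 DMSO peaks between chr12:87810955 and chr12:87845088. Of these, 3 overlapped MB-3 peaks, the widest of which, 1882 bp in DMSO, was covered over 34.9% of its length by 2 MB-3 peaks of 398 and 259 bp. The other 5 had none. Tfcp2l1 and Prdm14 had 2 DMSO peaks each and no MB-3 peak nearby. Those of Tfcp2l1 were 451 bp (chr1:120524673-120525123) and 317 bp (chr1:120547144-120547460), and the nearest MB-3 peak was 239001 bp away. Those of Prdm14 were 403 bp (chr1:13085752-13086154) and 792 bp (chr1:13094690-13095481). Side by side, neither gene kept a paired peak, while the transcript of Tfcp2l1 was lower with the block and that of Prdm14 passed in neither fit. With 5 genes this relation was not tested.

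**Figure D4:**
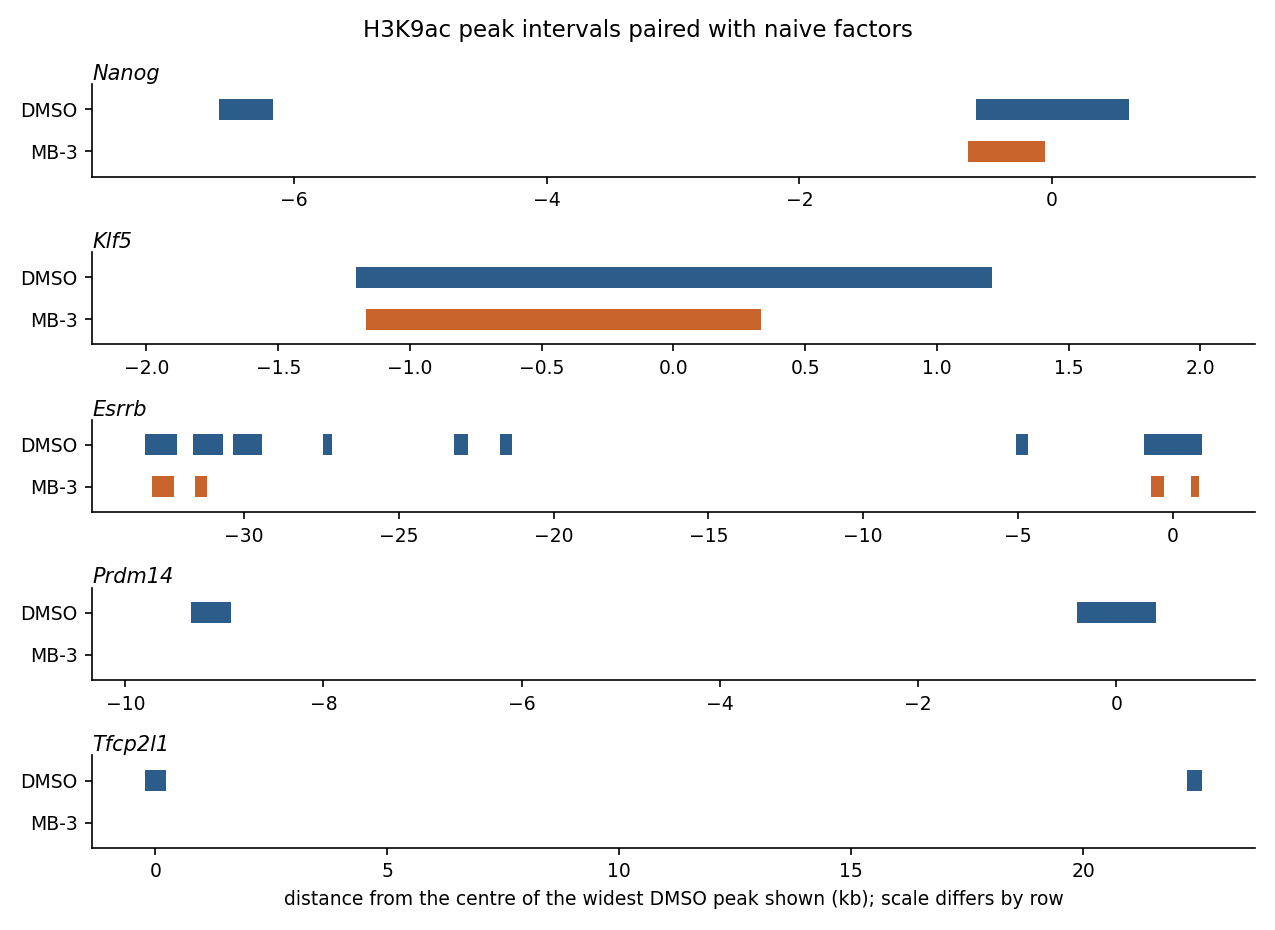
H3K9ac peak intervals of the DMSO list (blue) and the MB-3 list (orange) paired with 5 naive factors, as distance in kb from the centre of the widest DMSO peak of the gene (x axis, with a scale of its own in each row). Bars span the deposited intervals to scale and carry no height; the MB-3 rows of Prdm14 and Tfcp2l1 are empty, and 6 MB-3 intervals remain at the other 3 genes against 11 DMSO intervals.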

How the data were processed

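RNA from TNGA cells was sequenced as single-end polyA libraries. Per the study's methods, Bowtie placed the trimmed reads on mm10 and GenomicAlignments counted those in exons, and the authors deposited these counts unscaled for each Ensembl gene. Tool versions, annotation release and use of strand are not given in the sources used here. Identifiers of 30540 of 30677 genes were matched to GENCODE M21, and 0 columns were left unused. The deposited H3K9ac lists hold positions on mm9 that the authors called with MACS2 on merged duplicates after alignment with BWA, with whole-number starts and ends and no other value. Starts were raised by 1 to count from 1. Peaks were paired with genes by the study's gene assignment, of which part was used here, or by the Nanog region the study drew, with peaks lying between included, and 1 shared base counted as overlap. The input libraries were not used.

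Members and lists were chosen with earlier results of these data known. Genes kept by filterByExpr (20027) were tested with edgeR 4.0.16 in R 4.3.3 (TMM, glmQLFTest, treatment as the only term), adjusted by Benjamini-Hochberg at 0.05, and again with the replicate letter as a block. CPM are TMM-scaled, and log2 levels add 0.1 CPM. Of each comparison list, genes called in either fit were named, up to 4, or otherwise the most abundant. Genes outside that rule (Stat3, Pou5f1, Sox2, Thy1, Tbx2, Klf9, Dppa2, Fgf5, Hand1, Cdx2, Krt7, Lum, Postn, Kat2a, Kat2b) were named after their values were seen. The letters were taken as pairing the libraries, because the deviations of same-letter libraries from their group means correlated at 0.115 for A, 0.287 for B and 0.232 for C. On moderated log CPM the value for A was 0.0982, so the pairing of A is marginal over all tested genes. Over the 10164 genes at 10 CPM or more, a level that every member exceeded, it was 0.403 for A, 0.584 for B and 0.391 for C. Libraries of different letters and treatments were there at -0.402 to -0.0517. Nothing says what the letters stand for, so p-values measure the spread between these libraries. An exact permutation test of 3 against 3 cannot go below 0.1 and was not used. The depth was 42270312 to 51137896 counts per library, and the median standard error of the members' log2 fold changes was 0.063. Alternatives were other normalizations and filters, DESeq2 1.42.0, limma-voom 3.58.1, robust dispersion, single libraries left out and, chosen after seeing the data, letters left out of the blocked fit. The procedure was tested on simulated data. Plots were drawn with matplotlib 3.10.9.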

Additional observations from a re-analysis of the deposited data

How the results depend on the processing

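The number of genes called depended strongly on the fit, while the naive factors among them varied from 0 to 3. With treatment alone 41 genes were called. Other settings called 25 (upper quartile normalization), 24 (a filter of 1 CPM in 3 libraries), 18 (limma-voom), 66 (robust dispersion), 192 (DESeq2), 194 (no filter), 1425 (edgeR with the letters as a replicate block) and 626 (DESeq2 with the block). Leaving out 1 library gave 0 to 520 genes, and 0 to 1 naive factors. The lowest counts, 0, came without MB-3 A or MB-3 B, where 1440 and 1716 genes had an unadjusted p under 0.05 in edgeR's test, and the highest, 520, came without DMSO B. DMSO A and DMSO C left out gave 3 and 5, and MB-3 C left out gave 62. Both fits with the block called 2 naive factors, Tbx3 and Tfcp2l1, and the block changed no other call among the members. Leaving letter A out of the blocked fit gave 939 genes and 1 naive factor, leaving out letter B gave 912 and 1, and leaving out letter C gave 1037 and 3. Of the members, 3 changed sign when a library was left out: Klf2 ranged from -0.0408 to 0.15 in log2 fold change, Klf5 from -0.0221 to 0.0765 and Prdm14 from -0.024 to 0.0984. The other 7 kept their direction in all 15 alternatives. Requiring MB-3 peaks to cover 50% of a DMSO peak raised the peaks without a counterpart from 10 to 13, and accepting an MB-3 peak within 1000 bp gave 9. Shares of all DMSO peaks were not counted under these rules, so the member counts have no background there. The causes of the differences between settings were not tested. The peak lists carry no depth.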
